A study of Mus musculus with 48 samples.

Results

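Genes for the nucleus-encoded subunits of mitochondrial respiratory complexes I to IV were examined in the livers of 48 mice kept on diets that differed in macronutrient balance. The members are 47 listed genes, and 43 of them had a probe set that the array annotation gives to them alone, out of 22180 genes so represented. Complex I contributed 28 genes, complex II 4, complex III 6 and complex IV 5, and Ndufb2, Ndufb4, Ndufs6 and Cox6c were skipped for want of such a probe set. Ndufa4 is counted with complex I by its symbol, and its place in that complex was not checked. Each gene was read from its probe set with the highest mean over all arrays, and all 43 passed the filter on low values. Ndufs5, however, averaged only 1.43 on the log2 scale, against a filter level of 1.17.

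The labels describe male and female mice fed freely from 3 weeks of age on one of a set of diets and culled at 15 months, with 1 mouse taken per cage. The sex of a given mouse and the strain are not given in the sources used here. A diet is named by the percentages of its energy that protein, carbohydrate and fat supply, such as 5/48/48 for one with 5% protein, and by an energy level called High, Medium or Low. The livers covered 20 combinations of composition and energy level with 1 to 4 mice each. At High energy, 29 mice ate 5/20/75, 5/48/48, 5/75/20, 14/29/57, 14/57/29, 23/38/38, 23/65/12, 33/20/47, 33/47/20, 42/29/29 or 60/20/20. At Medium energy, 14 mice ate 14/29/57, 14/57/29, 23/38/38, 33/20/47, 33/47/20 or 42/29/29. At Low energy, 5 mice ate 23/38/38, 42/29/29 or 60/20/20. Protein made up 5% of energy for 10 mice, 14%, 23% and 33% for 9 mice each, 42% for 5 and 60% for 6. Every mouse on 5% protein was on High energy, and the mice on 60% protein analysed here were on High or Low energy.

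The respiratory chain passes electrons from nutrient oxidation to oxygen across the inner mitochondrial membrane. Complex I takes them from NADH, complex II takes them from succinate and is also the succinate dehydrogenase of the citric acid cycle, complex III hands them to cytochrome c, and complex IV gives them to oxygen. Complexes I, III and IV pump protons as they do so, and complex V uses that gradient to make ATP. Most subunits are encoded in the nucleus, while a small set of core subunits of complexes I, III and IV is encoded in mitochondrial DNA. Liver is rich in mitochondria, which there also serve fatty acid oxidation, the urea cycle and glucose production.

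The upstream sequences of 4 subunit genes are given here because 3 of them, Sdhb, Ndufb5 and Cox5a, were the members whose protein slope passed the test both without and with the array's spread in the model, and the fourth, Sdha, encodes the partner of Sdhb in complex II and had a slope near 0. Each is the 250 bases before the RefSeq transcription start, 5′ to 3′ on the gene's strand, in GRCm38.p6. They lie at chr4:140961021-140961270 on the + strand for Sdhb, chr3:32736813-32737062 on the + strand for Ndufb5, chr9:57520982-57521231 on the + strand for Cox5a and chr13:74350241-74350490 on the − strand for Sdha. Capitals mark the SP1 box, GGGCGG or its reverse complement CCGCCC.
Sdhb: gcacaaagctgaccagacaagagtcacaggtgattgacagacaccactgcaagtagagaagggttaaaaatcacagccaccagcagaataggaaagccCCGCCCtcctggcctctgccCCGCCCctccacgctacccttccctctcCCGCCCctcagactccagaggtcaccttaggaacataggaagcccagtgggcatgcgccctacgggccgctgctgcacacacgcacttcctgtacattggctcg
Ndufb5: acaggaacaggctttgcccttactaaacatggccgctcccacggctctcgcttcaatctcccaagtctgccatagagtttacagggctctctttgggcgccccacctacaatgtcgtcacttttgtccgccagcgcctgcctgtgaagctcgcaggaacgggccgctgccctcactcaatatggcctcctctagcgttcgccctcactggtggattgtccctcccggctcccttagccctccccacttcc
Cox5a: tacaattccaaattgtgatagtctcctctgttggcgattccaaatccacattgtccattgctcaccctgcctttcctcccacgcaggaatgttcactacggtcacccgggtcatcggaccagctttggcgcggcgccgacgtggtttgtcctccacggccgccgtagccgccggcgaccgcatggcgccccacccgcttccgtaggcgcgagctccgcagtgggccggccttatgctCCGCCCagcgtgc
Sdha: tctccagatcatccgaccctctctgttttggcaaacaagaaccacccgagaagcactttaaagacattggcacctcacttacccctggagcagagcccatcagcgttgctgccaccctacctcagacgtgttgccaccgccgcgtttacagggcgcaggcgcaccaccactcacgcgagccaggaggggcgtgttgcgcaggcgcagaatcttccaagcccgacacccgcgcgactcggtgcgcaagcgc
The Sdhb window held 3 such boxes and the Cox5a window 1, while the Ndufb5 and Sdha windows held 0.

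Upstream windows of the same length were matched by symbol for 34 of the 43 members and for 17491 genes in all. The SP1 box occurred on either strand in 13 of the 34 member windows (38.2%), against 45.8% of all genes. It was present in 9 of the 21 windows of members called for protein and in 4 of the 13 windows of the others. The core letters bound by NRF1 (CGCATGCG) occurred in 1 member window, that of Ndufa8, and in 2.32% of all genes. The element of estrogen-related receptors (AAGGTCA) occurred in 1, that of Ndufs5, and in 4.18% of all genes. The ETS core bound by GABPA (CCGGAAGT) and the YY1 core (AAGATGGC) occurred in 0 of the 34, against 4.26% and 1.77% of all genes. These counts describe letters in the windows on both strands, and none of the motifs contains another.

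Hepatocyte markers were high in these livers, as the label liver requires: 9 of 9 hepatocyte markers averaged between 10.1 (Hnf4a) and 12.9 (Alb) on the log2 scale, while 8 markers of skeletal and heart muscle averaged between 0.82 and 2.11. Array medians ranged from 1.57 to 1.86. The interquartile range of all probe sets on an array, used here as a measure of its spread, ranged from 2.78 to 3.63 and moved with diet. It averaged 3.48 ± 0.13 (SD, n = 10) at 5% protein, 3.30 ± 0.17 (n = 9) at 14%, 3.19 ± 0.27 (n = 9) at 23%, 3.17 ± 0.14 (n = 9) at 33%, 3.21 ± 0.27 (n = 5) at 42% and 3.16 ± 0.20 (n = 6) at 60%. Comparisons are therefore given without and with this range as a covariate.

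The first question was whether subunit expression followed the protein share of the diet. Of 43 members, 27 rose with protein and 0 fell without the array range in the model, while 3 rose and 0 fell with it. The 27 were 20 of 28 in complex I, 1 of 4 in complex II, 3 of 6 in complex III and 3 of 5 in complex IV. The test was limma's moderated fit across all 16926 genes tested, with Benjamini-Hochberg adjusted p under 0.05. In the fit without the range, 3.37% of all genes tested were called up and 3.65% down, and in the fit with it 0.449% and 0.219%. The slope is the log2 change for each 10 points by which the protein percentage grows while carbohydrate and fat shrink equally. Its median over the members was 0.093, with 42 of 43 positive, against −0.0019 over all genes tested, and with the range it was 0.047. The calls named in the next paragraphs, complex by complex, are those without the range, and the calls with it follow them. Among the 27 called members the slopes ran from 0.066 to 0.18, which over the 55 points from the leanest to the richest protein share amounts to 1.29-fold to 1.99-fold. In whole liver, fewer cells of a type and less RNA per cell cannot be told apart.

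The per-mouse means of each complex, taken over gene-centred log2 values so that 0 is the average of all 48 mice, show the size of this shift. The complex I mean ran from −0.45 through a median of −0.25 to 0.090 in the 10 mice on 5% protein, and from −0.030 through 0.19 to 0.42 in the 6 mice on 60%. The complex II mean ran from −0.47 through −0.24 to −0.023 at 5% and from −0.017 through 0.14 to 0.47 at 60%. For complex II the groups just failed to overlap, and for complex I they overlapped in their inner values. The complex III mean ran from −0.47 through −0.27 to 0.075 at 5% and from −0.037 through 0.17 to 0.45 at 60%. The complex IV mean ran from −0.39 through −0.18 to 0.024 at 5% and from −0.18 through 0.24 to 0.56 at 60%. In these last cases some mice on 60% protein lay within the range of the 5% group.

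**Figure D1:**
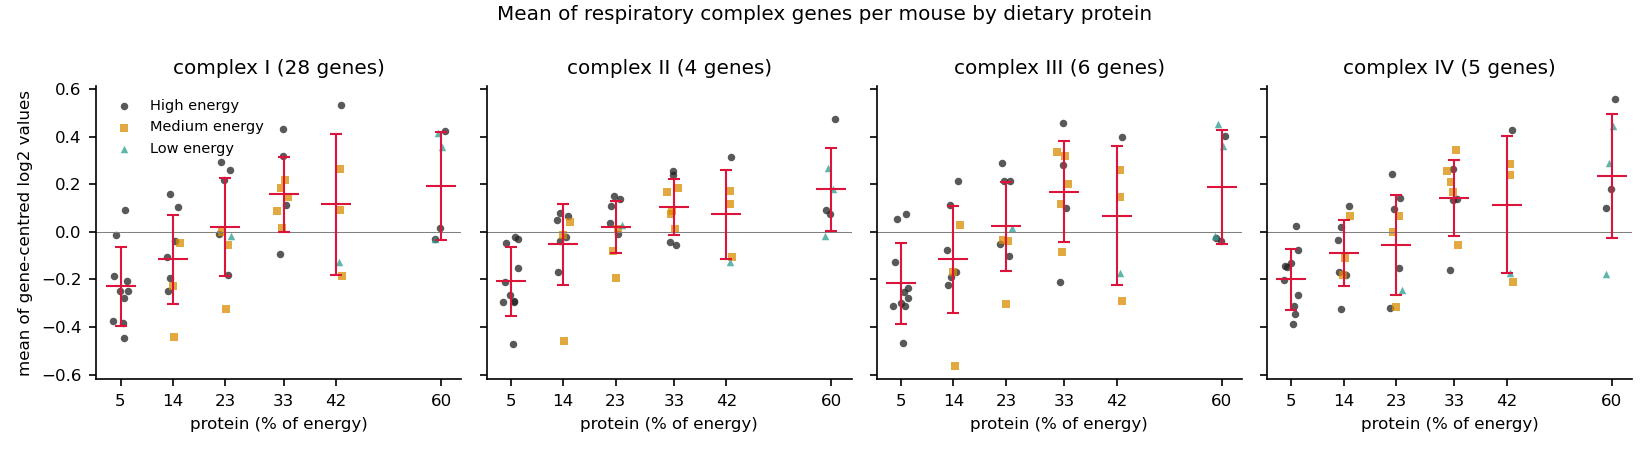
Mean of gene-centred log2 values of each complex (vertical axis) against dietary protein in percent of energy (horizontal axis), 1 point per mouse, with symbols for the energy level and red marks for the group mean ± SD. In all 4 panels the 5% group is lowest, and the means of complexes I to IV together go from −0.22 at 5% to 0.20 at 60%.

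The rise was graded but not strictly monotone. Averaged over all 43 genes, the mean was −0.22 ± 0.15 (SD, n = 10) at 5% protein, −0.11 ± 0.17 (n = 9) at 14%, 0.012 ± 0.19 (n = 9) at 23%, 0.15 ± 0.15 (n = 9) at 33%, 0.10 ± 0.28 (n = 5) at 42% and 0.20 ± 0.22 (n = 6) at 60%. Neighbouring shares differed by less than the SD between mice within them, and the differences between neighbouring shares were not tested. The 5 mice on 42% protein were the most spread group. Member by member, the median step was 0.13 from 5% to 14%, 0.11 to 23% and 0.15 to 33%, then −0.087 to 42% and 0.12 to 60%. The lowest group mean was at 5% protein for 31 members, and the highest was at 60% for 21, at 42% for 11 and at 33% for 11. The mean at 60% exceeded that at 5% for 41 members.

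**Figure D2:**
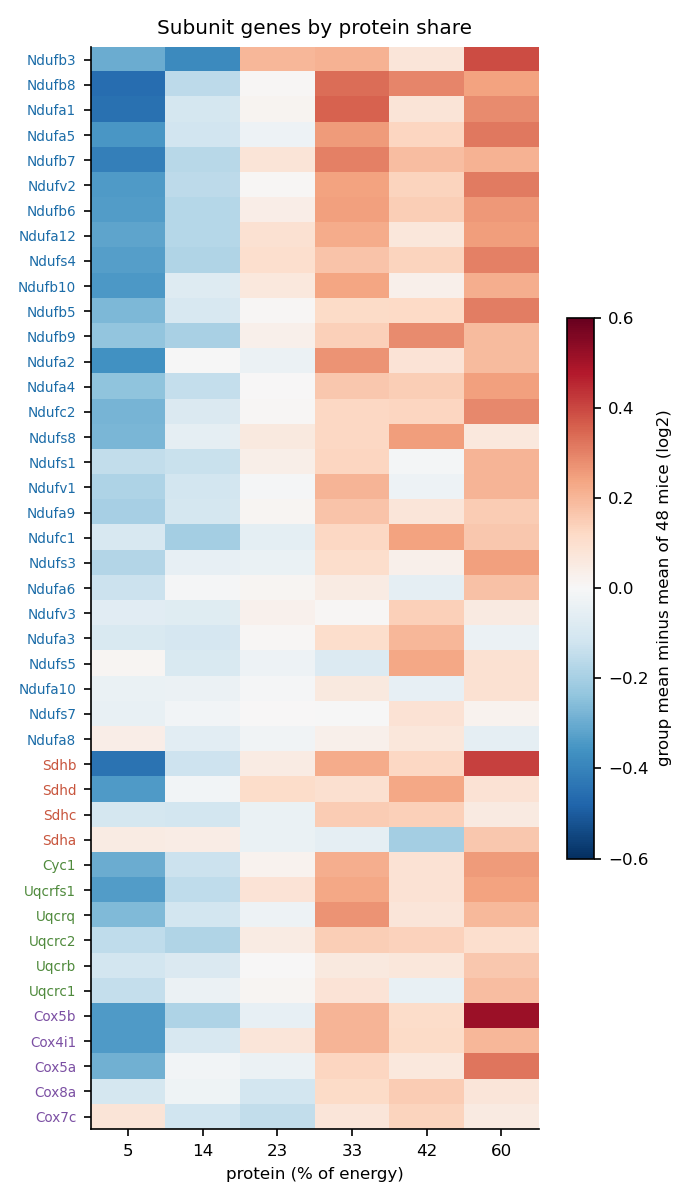
Group mean minus the mean of all 48 mice (colour, log2) for each of the 43 subunit genes (rows, coloured by complex as in the plot of slopes) at each protein share in percent of energy (columns). Sdhb and Cox5b show the widest span, about from blue at 5% to dark red at 60%, while Sdha, Ndufa8, Ndufs5 and Cox7c show no such gradient.

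Complex I holds a catalytic core, which includes the subunits that bind the flavin and iron-sulfur clusters, surrounded by accessory subunits. Of the 6 core genes among the measured members, Ndufs1, Ndufs3, Ndufv1 and Ndufv2 rose and Ndufs7 and Ndufs8 did not pass. Their slopes ran from 0.030 to 0.14, with a median of 0.082. Of the 22 accessory genes, with Ndufa4 among them by its symbol, 16 rose, with slopes from −0.0015 to 0.18 and a median of 0.11. With the array range, 0 of the core and 1 of the accessory genes passed, with medians of 0.048 and 0.048. The difference between core and accessory genes was not tested.

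Ndufb5, an accessory subunit of the membrane arm, had the smallest p-value in complex I. Its log2 level ran from 6.53 through a median of 6.85 to 7.23 at 5% protein and from 7.21 through 7.54 to 7.67 at 60%. The groups met only at their edges, and the slope was 0.12 ± 0.020 (SE; limma adjusted p = 0.00023). Ndufb3, another membrane arm subunit, had the largest slope in complex I, 0.18 ± 0.039 (limma adjusted p = 0.0047). Its level ran from 4.0 through 4.28 to 4.64 at 5% protein and from 4.48 through 4.88 to 5.65 at 60%, so its groups overlapped. Ndufv2, which carries an iron-sulfur cluster at the NADH end, ran from 7.78 through 8.14 to 8.60 at 5% and from 8.48 through 8.78 to 9.11 at 60%, with a slope of 0.14 ± 0.029 (limma adjusted p = 0.0044).

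Ndufa12, Ndufb9, Ndufa5, Ndufa1 and Ndufb10, all accessory subunits, completed the 8 complex I genes with the smallest p-values. Their slopes were 0.13, 0.12, 0.14, 0.15 and 0.12 per 10 points, and each passed the test. Ndufa1 averaged 7.40 ± 0.27 (SD, n = 10) on the 5% diets, 8.20 ± 0.21 (n = 9) on the 33% diets and 8.13 ± 0.24 (n = 6) on 60%. Among the members, 3 had 5% and 60% groups that did not overlap, namely Sdhb, Ndufs3 and Ndufs4, the latter 2 named after their values were seen. Genes outside the members were not counted in this way, so the 3 have no background to be set against. Ndufs3, a core subunit of the arm that leads to the quinone site, ran from 5.02 through 5.39 to 5.50 at 5% and from 5.55 through 5.79 to 5.87 at 60%. Ndufs4, an accessory subunit near the NADH module whose loss causes a mitochondrial encephalopathy, ran from 7.30 through 7.53 to 7.83 and from 7.85 through 8.17 to 8.62.

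Ndufa8 was the one member with a negative slope, −0.0015 ± 0.021 (limma adjusted p = 0.97). Its level ran from 8.47 through 8.73 to 9.25 at 5% protein and from 8.47 through 8.66 to 8.92 at 60%, with full overlap. Ndufa8 has a second probe set, and with the mean of both its slope was 0.021, so its sign is not settled. The other genes with 2 probe sets, Ndufa12 and Cox5b, kept their calls under that choice. Ndufs5 lay near the filter level throughout, with means of 1.44 at 5% and 1.52 at 60%.

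Complex II is built from the flavoprotein Sdha, the iron-sulfur protein Sdhb and the membrane anchors Sdhc and Sdhd. Sdhb had the largest slope and the smallest p-value of all 43 members, 0.18 ± 0.028 (SE; limma adjusted p = 7.8e-05), or 1.99-fold over 55 points. Its log2 level ran from 7.82 through a median of 8.05 to 8.50 at 5% protein, from 8.11 through 8.45 to 8.77 at 14%, from 8.15 through 8.66 to 9.09 at 23% and from 8.36 through 8.80 to 9.21 at 33%. The 5 mice on 42% protein had 8.19, 8.20, 8.74, 8.99 and 9.31, and the 6 on 60% had 8.50, 8.69, 8.93, 9.11, 9.20 and 9.41. Every mouse on 60% protein was thus above every mouse on 5%, by the narrowest of margins at the edge.

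Sdha, the catalytic partner of Sdhb, showed no such gradient. Its level ran from 9.89 through 10.23 to 10.40 at 5% protein and from 9.85 through 10.35 to 10.65 at 60%. The 5 mice on 42% had 9.53, 9.96, 10.04, 10.07 and 10.26, and its slope was 0.0025 ± 0.035 (limma adjusted p = 0.97), with a sign that changed among the alternatives. Sdhc and Sdhd had slopes of 0.060 ± 0.021 and 0.083 ± 0.031, with limma adjusted p-values of 0.073 and 0.088. Between mice, Sdha also ran apart from the other members: its correlation with each of the other 42 had a median of −0.23 over 48 mice and was positive for 7. Within diet combinations and with the array range removed, the median was −0.20 and 10 of 42 were positive. For Sdhb the same medians were 0.77 and 0.48. These correlations share arrays and are descriptions without a test.

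**Figure D3:**
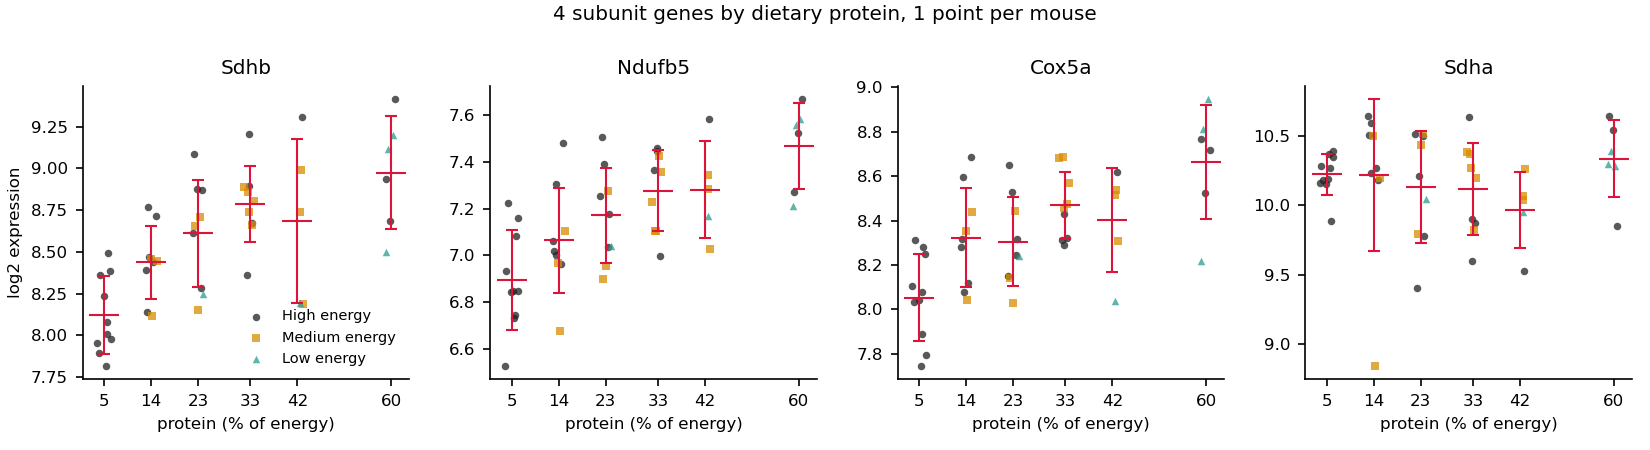
Log2 expression of Sdhb, Ndufb5, Cox5a and Sdha (vertical axes, a scale for each gene) against dietary protein in percent of energy, 1 point per mouse, symbols for the energy level, and red marks for the group mean ± SD. Sdhb goes from a mean of 8.12 at 5% to 8.97 at 60%, while Sdha stays between 9.97 and 10.34.

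In complex III, Uqcrb, Cyc1 and Uqcrfs1 rose and the remaining 3 did not pass. Cyc1, the cytochrome c1 that delivers electrons to cytochrome c, had the largest slope, 0.12 ± 0.032 (limma adjusted p = 0.017), and ran from 7.26 through 7.62 to 8.18 at 5% protein and from 7.85 through 8.22 to 8.62 at 60%. Uqcrfs1, the Rieske iron-sulfur protein, had a slope of 0.11 ± 0.031 (limma adjusted p = 0.022), with means of 5.70 ± 0.27 (SD, n = 10) at 5% and 6.27 ± 0.28 (n = 6) at 60%. Uqcrb, a small subunit near the quinone site, rose by less but with less spread, 0.066 ± 0.016 (limma adjusted p = 0.011). The core proteins Uqcrc1 and Uqcrc2 had slopes of 0.056 and 0.070 with limma adjusted p-values of 0.057 and 0.074, and Uqcrq had 0.093 with 0.059. All 6 slopes were positive. For the 3 called genes the 5% and 60% groups overlapped.

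The complex IV genes measured are nuclear structural subunits that surround the catalytic core. Cox5a ran from 7.75 through 8.06 to 8.31 at 5% protein and had 8.22, 8.52, 8.72, 8.77, 8.81 and 8.95 in the 6 mice on 60%. A single mouse of the 60% group lay within the 5% range, and the slope was 0.11 ± 0.021 (limma adjusted p = 0.0013). Cox5b had the largest slope in the complex, 0.18 ± 0.036 (limma adjusted p = 0.0026), and ran from 6.64 through 7.01 to 7.60 at 5% and from 7.31 through 7.92 to 8.42 at 60%. Cox4i1, the ubiquitous isoform of subunit 4, went from 9.09 ± 0.26 (SD, n = 10) to 9.63 ± 0.35 (n = 6), with a slope of 0.11 ± 0.030 (limma adjusted p = 0.019). Cox8a had 0.059 ± 0.025 and Cox7c 0.040 ± 0.037, with limma adjusted p-values of 0.12 and 0.50. Cox7c averaged 3.38 at 5% protein and 3.36 at 60%.

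With the array interquartile range as a covariate, the protein slope of 3 members passed: Sdhb, Ndufb5 and Cox5a. In that fit 0.449% of all genes tested were called up and 0.219% down. The slopes were 0.12 ± 0.021 for Sdhb (limma adjusted p = 0.0014), 0.093 ± 0.019 for Ndufb5 (limma adjusted p = 0.0077) and 0.080 ± 0.020 for Cox5a (limma adjusted p = 0.044). Over all members the median slope was 0.047, again with 42 of 43 positive, against 0.0018 over all genes tested. The slope was smaller with the covariate for 41 of 43 members, and for the 27 called without it the median ratio of the slope with to without was 0.53. By complex, the median was 0.048 in complex I, 0.045 in complex II, 0.043 in complex III and 0.062 in complex IV. Cox5b kept 0.13 ± 0.035 with limma adjusted p = 0.077, and Ndufb3 0.13 ± 0.040 with 0.12. At an unadjusted p under 0.05, 23 members passed with the covariate and 35 without, beside 1762 and 4510 of all 16926 genes tested.

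**Figure D4:**
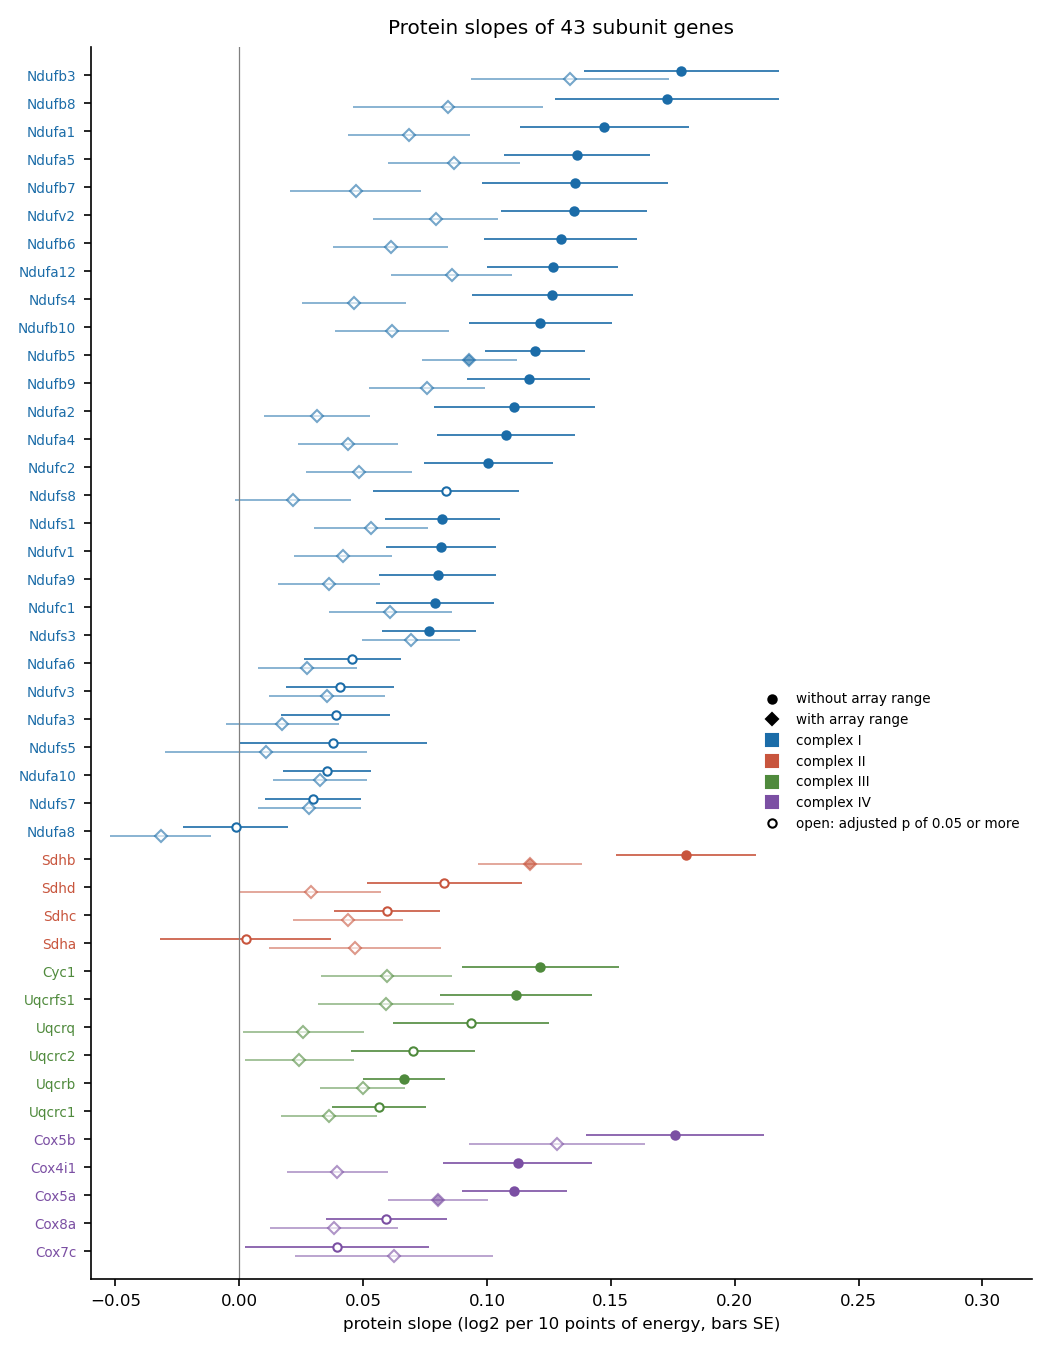
Protein slope of each of the 43 subunit genes in log2 per 10 points of energy (horizontal axis, bars are SE), grouped and coloured by complex, without (circles) and with (diamonds) the array interquartile range as covariate. Filled symbols have a limma adjusted p under 0.05, 27 without and 3 with the covariate, and the diamonds lie left of the circles for 41 genes.

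Array range and subunit level also moved together within the 5 protein shares that held at least 6 mice. Across all 48 mice the mean of the 43 genes and the range had Pearson r = −0.79 and Spearman rho = −0.82, and r was −0.82 without the 2 arrays farthest from the median range. Within shares r was −0.86 at 5%, −0.74 at 14%, −0.65 at 23%, −0.55 at 33% and −0.73 at 60%, with 10, 9, 9, 9 and 6 mice. The range is computed from the same arrays as the genes, so these values describe the arrays and carry no p-value. By complex, r over 48 mice was −0.81 for complex I, −0.64 for complex II, −0.77 for complex III and −0.66 for complex IV. What part of the protein slope belongs to the range was not tested.

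**Figure D5:**
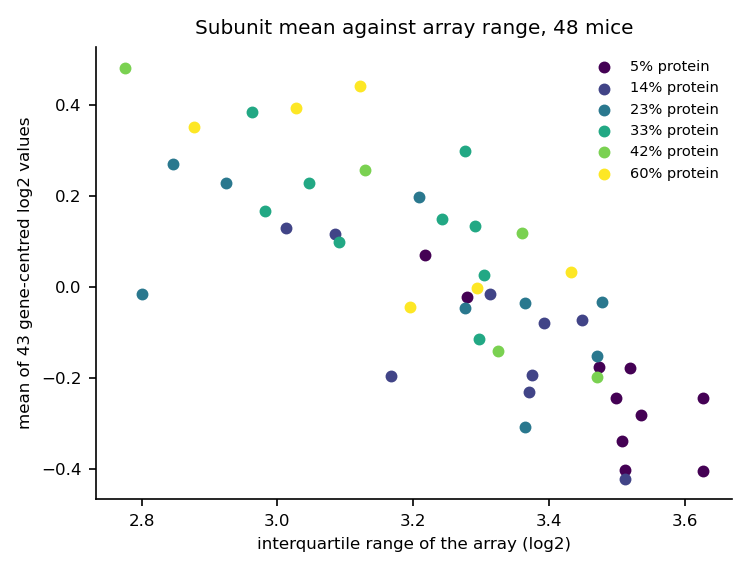
Mean of the 43 gene-centred log2 values (vertical axis) against the interquartile range of the array in log2 units (horizontal axis), 1 point per mouse, coloured by protein share. Of the 10 mice on 5% protein, 8 sit at the wide, low end and 2 nearer the middle. Over all 48 mice r is −0.79.

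The call also leaned on the lowest protein share. Without the 10 mice on 5% protein, 0 of 43 members passed, 21 had an unadjusted p under 0.05 in limma, and 0.0709% of all genes tested were called up. The median slope was then 0.068 with 42 of 43 positive. Taking the energy from carbohydrate alone at fixed fat, 14 members were called, against 0.827% of all genes called up, and taking it from fat alone at fixed carbohydrate, 17, against 1.93%. The median slopes were 0.097 and 0.090.

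Members varied together from mouse to mouse. Over the 903 pairs, the median Pearson r across 48 mice was 0.57, within diet combinations 0.49, and 0.35 once the array range was also removed. Correlations among pairs of other genes were not computed, so these medians have no background to be set against. Within combinations and with the range removed, the median was 0.34 within complex I, 0.52 within complex III, 0.23 within complex IV and 0.12 within complex II, against 0.36 for pairs from different complexes. In complex II, 3 of the 6 pairs were positive, within a range from −0.54 to 0.53. The 5 other genes whose level was most like the mean of the members were Atp5pb, a subunit of ATP synthase, Lypla1, Apoc1, Gchfr and Cox6b1, a further complex IV subunit, with r from 0.93 to 0.95 over 48 mice.

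Carbohydrate exchanged for fat at fixed protein gave no member past the test. The limma count was 0 of 43, with 0 at an unadjusted p under 0.05, and 0% of all genes tested were called. The median member slope was 0.0056 per 10 points, with 27 positive and a range from −0.038 to 0.038, against 0.0018 over all genes. With the array range the count was again 0 in limma, 0 members had an unadjusted p under 0.05, and the median was 0.00022. The smallest p-value was that of Ndufb10, 0.038 ± 0.032. By fat share the mean over the 43 genes was highest at 47% fat, 0.25 ± 0.098 (SD, n = 5), and lowest at 48%, −0.29 ± 0.18 (n = 4), shares that belong to 33% and 5% protein respectively. Nearly equal fat shares thus held the extremes. By carbohydrate share the mean was 0.14 ± 0.24 (SD, n = 13) at 20%, −0.29 ± 0.18 (n = 4) at 48% and −0.13 ± 0.14 (n = 4) at 75%.

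At a given protein share the fat and carbohydrate balance went with some spread. At 33% protein, the mean of the 43 genes was 0.15, 0.17, 0.23, 0.30 and 0.39 in the 5 mice on 33/20/47 and −0.11, 0.027, 0.098 and 0.13 in the 4 mice on 33/47/20. The array range ran from 2.96 to 3.28 in the former 5 and from 3.09 to 3.30 in the latter 4. In the mean of the 43 genes, the high-fat group lay above the high-carbohydrate group without overlap, a difference that was not tested. At 5% protein the order was the other way: the mean was −0.28 and −0.24 in the 2 mice on 5/20/75, −0.29 ± 0.18 (SD, n = 4) on 5/48/48 and −0.13 ± 0.14 (n = 4) on 5/75/20. The lowest of the 5/75/20 mice, at −0.243, lay just above both 5/20/75 mice, the higher of which was at −0.245, while the 5/48/48 mice overlapped with both other groups. A term for the product of protein share and carbohydrate-for-fat exchange, added after these values were seen, called 0 of 43 members in limma, with 4 at an unadjusted p under 0.05 and 0% of all genes called. Its coefficient was negative for 41 of 43 members, with a median of −0.028 against 0.0021 over all genes. Uqcrb had the smallest p-value, −0.048 ± 0.015 (limma adjusted p = 0.97). With the array range the count was also 0, the median was −0.018 against 0.00054 over all genes, and Uqcrb had −0.044 ± 0.015.

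Energy level gave no called member in the model of all mice. High minus Medium energy called 0 of 43 in limma, with 1 at an unadjusted p under 0.05 and 0% of all genes called. The median difference was 0.059, with 36 positive, against 0.0065 over all genes. It was positive for 26 of 28 genes in complex I and for 1 of 5 in complex IV, whose medians were 0.070 and −0.015. Ndufb3 had the largest, 0.35 ± 0.14 (SE; limma adjusted p = 0.52). With the array range the count was 0 in limma, with 2 at an unadjusted p under 0.05. Restricted to compositions fed at both levels, Ndufa9, Ndufb3, Ndufb10 and Ndufs1 were higher at High energy, against 4.25% of all genes called up in that comparison. Ndufb10, an accessory subunit of the membrane arm, had a difference of 0.43 ± 0.11 (limma adjusted p = 0.0067), and it was the 1 member called with the array range, against 4.8% of all genes called up there.

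The composition 14/29/57 had 1 Medium energy mouse. On it, Ndufb10 read 6.29, 6.48, 6.66 and 6.90 in the 4 High energy mice and 5.79 in the 1 Medium energy mouse, and Ndufa9 read 8.71, 8.90, 8.96 and 8.99 against 7.99. In each the Medium energy mouse was below all the High energy mice. Without that composition, 0 of 43 were called in limma, beside 0.00591% of all genes called up, against 4.25% with it. In either direction the share of all genes called was 0.0118%, against 11.2% with it. Ndufb10 then had 0.36 ± 0.11 (limma adjusted p = 0.17) and Ndufb3 0.40 ± 0.16 (limma adjusted p = 0.24). Leaving out the Medium energy mouse alone was not run, and would itself drop 14/29/57 from this comparison. The restriction to compositions other than 14/29/57 was chosen after seeing the data. The composition 42/29/29, kept in it, also rested on 1 mouse, at High energy, against 3 at Medium energy. That High energy mouse had the highest mean of the 43 genes among the 48 mice, 0.48, and the smallest array range, 2.78. A fit without 42/29/29 was not run.

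Low against High energy was compared within 60/20/20, where each level had 3 mice. The limma count was 0 of 43, with 0 at an unadjusted p under 0.05 and 0% of all genes called. The median difference was 0.043, with 24 positive, against −0.033 over all genes. Ndufc2, an accessory subunit, had the smallest p-value, 0.42 ± 0.21 (limma adjusted p = 0.51), with 8.73, 8.97 and 9.02 at Low energy and 8.21, 8.36 and 8.90 at High energy. Its groups overlapped. Under the covariate for array range the count was 0 in limma, with 1 member at an unadjusted p under 0.05, and the median turned to −0.096 with 11 positive.

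The protein slope itself was not shown to differ between Medium and High energy. The difference called 0 of 43 members in limma, with 1 at an unadjusted p under 0.05 and 0% of all genes called, and its median was 0.033 against 0.0070 over all genes. Ndufc1 had the smallest p-value, 0.14 ± 0.065 (limma adjusted p = 0.87). Adding the array range, the count was 0 in limma and Ndufc1 had 0.15 ± 0.061. In all 5 comparisons beside the protein slope, 0% of all genes tested were called with the array range as well.

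Other genes of the respiratory system were counted in the same fit, against the 3.37% of all genes called up and 3.65% called down. Among 12 further nuclear subunits of complexes I, III and IV, 8 rose and 0 fell, led by Cox7a2 (0.12 ± 0.028), Cox6b1 (0.13 ± 0.032) and Ndufa13 (0.084 ± 0.021). Among 16 genes of complex V, 7 rose, led by Atp5g3 (0.12 ± 0.023), Atp5k (0.18 ± 0.037) and Atp5pb (0.13 ± 0.027). Of 40 assembly factors, which help build the complexes, 11 rose, led by Ndufaf6 (0.20 ± 0.042). The median slope was 0.12 for the further nuclear subunits, 0.078 for complex V and 0.077 for the assembly factors.

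Of 10 subunits encoded in mitochondrial DNA, 2 rose, ND6 (0.15 ± 0.033) and ND3 (0.046 ± 0.014). Their median slope was 0.013, with 9 of 10 positive, and 0.020 with the array range, with 10 of 10 positive. Whether they differ from the nuclear subunits was not tested. Of 7 electron carriers, cytochrome c (Cycs, 0.095 ± 0.021) and the electron-transferring flavoprotein subunit Etfb (0.093 ± 0.029) rose, and the glycerol-3-phosphate dehydrogenase Gpd2 fell (−0.17 ± 0.045). Of 12 mitochondrial chaperones and proteases 1 rose, Clpp, and of 10 genes of the outer membrane and import machinery 0 were called in limma, with 3 at an unadjusted p under 0.05. Of 3 muscle and heart isoforms of complex IV, 0 were called in limma, with 1 at an unadjusted p under 0.05.

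Of 13 transcription regulators of mitochondrial genes, 1 rose and 1 fell. Esrra, an estrogen-related receptor, rose (0.11 ± 0.031; limma adjusted p = 0.027) and Pprc1, a coactivator of the PGC-1 family, fell (−0.16 ± 0.047; limma adjusted p = 0.027). Ppargc1a, the best known coactivator of mitochondrial biogenesis, had 0.047 ± 0.056 (limma adjusted p = 0.61). Nrf1 had −0.036 and Gabpa −0.012, and Tfam, which packages and transcribes mitochondrial DNA, had 0.084 ± 0.034 (limma adjusted p = 0.11). With the array range, Atp5g3 of complex V and 1 assembly factor were still called, and 0 genes of the other 7 lists, all of whose counts are from limma. At an unadjusted p under 0.05 those 7 lists then held 7 further subunits, 2 mitochondrially encoded, 1 muscle isoform, 2 carriers, 1 regulator, 0 chaperones and 0 import genes.

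Markers of other liver cells mostly had negative protein slopes. All 8 macrophage markers, all 8 stellate and fibroblast markers, all 6 lymphocyte markers and 5 of 6 endothelial markers had negative protein slopes. In the same order, 0, 2, 0 and 0 markers fell in limma, with 2, 5, 2 and 3 at an unadjusted p under 0.05. Over all 16926 genes tested, 48.8% of slopes were positive, 3.65% of genes fell, and 4510 had an unadjusted p under 0.05. Of 9 hepatocyte markers, 2 rose and 0 fell, with 5 positive and 4 negative slopes and a median of 0.010. The slopes of this list ran from −0.023 to 0.15, and the list includes the metabolic enzymes Cps1, Tat and Hpd. In the model that holds the array range, 0 markers of these 4 other cell types fell in limma, with 0 at an unadjusted p under 0.05, and 1 hepatocyte marker rose. There, 0.449% of all genes tested rose and 0.219% fell. The median slope of the stellate and fibroblast markers was −0.12 without and −0.072 with the range, and that of the macrophage markers −0.11 and −0.035. The mean of the macrophage markers ran from −1.16 to 0.77 at 5% protein and from −1.02 to 0.13 at 60%, that of the stellate and fibroblast markers from −0.11 to 1.47 and from −0.68 to 0.0092, that of the endothelial markers from −0.46 to 0.69 and from −0.42 to 0.029, and that of the hepatocyte markers from −0.25 to 0.10 and from 0.014 to 0.12. The lymphocyte markers averaged no more than 3.68 in log2 level, their mean running from −0.48 to 0.95 at 5% and from −0.41 to 0.055 at 60%. The part of these cells in the subunit slopes was not tested.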

How the data were processed

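Total RNA from 48 mouse livers had been hybridised to Affymetrix arrays, 1 array per mouse. The deposited values of 41345 probe sets lie between −0.51 and 13.42 and are taken here for log2 expression values as processed by the authors; their normalization and background correction are not given in the sources used here. The log2 scale was inferred from that range. Values were used as deposited. The platform annotation gave 1 symbol to 23521 probe sets, several to 1814 and none to 16010, and 23328 of the first matched RefSeq by gene ID. A gene was its single-symbol probe set with the highest mean.

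Genes whose probe set mean was above the 30th percentile (1.17) were tested, 16926 in all. Fits used limma 3.58.1 in R 4.3.3 (lmFit, eBayes with trend, two-sided, Benjamini-Hochberg over all genes tested, threshold 0.05), with protein share, carbohydrate-for-fat exchange and energy level as terms, and again with the interquartile range of each array. The Low against High comparison used 1 mean per combination. Code was tested on simulated data. Mice came 1 from each cage, per the labels, so replicates are separate animals; 0 pairs of arrays were identical. Depth does not apply to arrays, and the number of arrays limits the precision.

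The members and gene lists were chosen with earlier results of these data known. Named with values were, in each complex, the 4 members (complex I: 8) with the smallest p of the protein slope, the largest and smallest slopes, members called with the array range, the 3 leading members by p in every other comparison, up to 3 genes of each further list, and Ppargc1a, Esrra, Nrf1, Gabpa and Tfam. Adipose, pancreas and bile duct markers were also listed. Of their 2, 2 and 4 genes tested, 0 were called for protein in limma and 0 had an unadjusted p under 0.05. The 0 called muscle markers, of 7 tested, had 0 as well. Alternatives covered filters, probe sets, normalization, array weights, covariates, a random block and left-out mice. Promoter windows are from RefSeq (GRCm38.p6).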

Additional observations from a re-analysis of the deposited data

Results flagged for a closer look

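Within a protein share or a combination of 4 mice, 14 of 315 groups of values examined, over 30 members and 5 complex means, had 1 mouse set far apart from the rest by Dixon's criterion; chance alone flags about 1 group in 20.

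On High energy 5/48/48, replicate 2 stood above the other 3 mice in Ndufb3 (4.63 against 4.08 for the next), Ndufv2 (8.60 against 8.03), the mean of complex I (−0.012 against −0.37) and the mean of complexes I to IV (−0.021 against −0.34). Medium energy 14/29/57, held by 1 mouse, was the lowest at 14% protein in Sdha (8.85 against 10.18 for the next) and in the mean of complex II (−0.46 against −0.17).

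High energy 14/29/57 replicate 2 was lowest of its 4 in Ndufb3 (4.06 against 4.56) and Cox5b (6.66 against 7.37), and replicate 1 was highest in Cox7c (3.36 against 3.12). Cox7c at 14% protein was lowest in Medium energy 14/57/29 replicate 1 (2.77 against 3.08). High energy 5/75/20 replicate 1 was highest at 5% protein in Ndufs7 (8.45 against 8.10) and lowest in Sdha (9.89 against 10.15). Ndufs7 at 23% protein was highest in High energy 23/65/12 replicate 1 (8.42 against 8.13). Uqcrc1 at 5% protein was lowest in High energy 5/48/48 replicate 3 (8.98 against 9.23).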

How the results depend on the processing

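For the protein slope, the count of members called was 27, with 3.37% of all genes called up, and moved to 13 without the 12 arrays of smallest range (0.975% of genes), 15 in High energy mice only (2.15%), 0 without 5% protein (0.0709%), 14 with protein for carbohydrate (0.827%) and 17 with protein for fat (1.93%); leaving out 1 mouse gave 20 to 33. With the array range the count of 3, beside 0.449% of genes, moved to 1 without those 12 arrays (0.171%), 1 in High energy mice only (0.473%), 0 without 5% protein (0.0945%) and 1 with protein for carbohydrate (0.0768%). Leaving out 1 mouse gave 1 (without High energy 60/20/20 replicate 2) to 5 (without Low energy 60/20/20 replicate 1). Of those 3, Sdhb was called in all 48 such fits, Ndufb5 in 47 and Cox5a in 29. High minus Medium energy moved from 0 to 4 over matched compositions (4.25% of genes called up), and with the array range from 0 to 1 (4.8%). Without 14/29/57 both counts were 0, beside 0.00591% and 0% of genes called up. For the other comparisons the count stayed 0 under each alternative run, left-out mice included. The cause of these moves was not tested. The settings without the 12 arrays, without 5% protein and in High energy mice only used fewer mice. Those with protein for carbohydrate, with protein for fat and over matched compositions were fitted on all 48.

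Over all genes, the protein slope called 570 up and 617 down, against 715 up and 420 down after quantile normalization and 309 up and 683 down after centring on array medians, with 28 and 22 members called up. Array weights called 34 members, 1751 genes up and 2550 down, and log2 of the protein share called 33 members, 1486 genes up and 2166 down. Sex was read only through Y-linked genes and Xist. All 3 Y-linked genes tested had positive protein slopes (median 0.095) and Xist had −0.21, with 0 at an unadjusted limma p under 0.05. With a term for Y-linked minus Xist level, 27 members were called, beside 3.13% of genes called up, and the median member slope was 0.086. The part of sex in the slopes was not tested.

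Near 0, slopes changed sign. The protein slope, Ndufa8, became 0.021 with the mean of probe sets, 0.0028 in High energy mice only, 0.0069 with protein for fat and 0.0032 with log2 protein, and ran from −0.011 to 0.010 with 1 mouse left out. The protein slope, Sdha, became −0.0089 after quantile normalization, −0.012 after centring on array medians, −0.023 with array weights, −0.025 in High energy mice only, −0.0047 with protein for carbohydrate and −0.013 with log2 protein, and ran from −0.018 to 0.018 with 1 mouse left out. No paired analysis was possible because replicate numbers were given in accession order and pair no mice.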
